A study of Capra hircus with 8 samples.

Results

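Gene expression in goat skin at month 9 was set against that at month 6, in both breeds of a study of seasonal hair follicle cycling. The comparison takes 4 of the 8 libraries, chosen by breed and month: cashmere goats at month 9, milk goats at month 9, cashmere goats at month 6 and milk goats at month 6. The other 4 libraries are of months 3 and 12. Cashmere goats are kept for their fine undercoat and milk goats for dairy, and no treatment or genotype is given for either. Each breed and month has 1 library of polyadenylated RNA, and the labels do not say whether it came from 1 animal or from several. Month is listed as an age in the labels, and their protocol also speaks of embryos although the tissue is given as skin. Every p-value below therefore measures only the spread between these libraries, and age and season cannot be told apart.

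Hair is made by matrix cells at the base of the follicle during the growth phase, which regression and rest follow. Their progeny fill with keratin filaments and then with keratin-associated proteins (KAPs), which pack and crosslink the filaments of the hair shaft. Around the young shaft lies the inner root sheath, rich in trichohyalin (TCHH), and at the base the dermal papilla sends the signals that start and stop growth. Sweat and sebaceous glands, epidermis, dermis, vessels, nerves and resident immune cells share the sample. In bulk skin, fewer cells of a type and less RNA per cell cannot be told apart.

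Library totals were 8718429 reads in cashmere goats and 13899750 in milk goats at month 9, against 8152447 and 12841576 at month 6. Both months held abundant follicle transcripts: TCHH took 4.89% and 12.96% of the reads of cashmere and milk goats at month 9, against 4.70% and 5.72% at month 6 (exact binomial 95% interval of the highest, 12.95% to 12.98%, counting error only). Reads are given as raw counts per library, and ratios are taken after scaling. The milk goat library of month 9 stood apart by its TCHH share and by a scaling factor of 0.783 against 0.989 to 1.13 in the other 7 libraries. Its summed transcripts of macrophage and dendritic, T and NK, and mast cell genes were the lowest of the 8 libraries. Those of interferon response genes were lower still in cashmere goats at month 12. The cashmere goat library of month 6 stood apart by dermal matrix genes, at 4.26% of its reads against 0.697% to 1.65% in the other cashmere goat libraries. Fitted medians of gene lists are also given without single libraries where leaving 1 out moved them by over 1.5 times.

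No gene passed an adjusted p of 0.05 in the edgeR quasi-likelihood fit of all 8 libraries (0% of 14085 genes tested, 905 at an unadjusted p under 0.05, smallest adjusted p 0.750). DESeq2 on the same libraries called 11 genes, 3 higher and 8 lower at month 9. A fit of the 4 libraries alone, which leaves 1 residual degree of freedom, called 207 genes higher (1.46% of 14163) and 287 lower (2.03%). That count moved between 17 and 494 over 6 analyses of the same 4 libraries that differed in scaling, filter or tool, and 13 genes passed in all of them. With libraries scaled by their totals alone the split was 49 higher and 215 lower. Without a test, 52 genes were at least 2-fold higher at month 9 in both breeds (0.369%) and 106 at least 2-fold lower (0.753%). Of any size, 31% of genes were higher in both breeds and 28.6% lower in both. Genes with both month 9 libraries on the same side of both month 6 libraries fall within these, and their share of all genes was not counted. "Passed" below refers to the fit of the 4 libraries with TMM factors, the usual edgeR scaling, and no named gene passed in the fit of all 8. That 4-library fit called the most genes of the 6 analyses, 494, so most genes that passed in it did not pass in every other. Its spread per gene was mostly borrowed from other genes, with 47.0 prior degrees of freedom beside 1 residual degree of freedom. The prior was 7.80 when hair genes were left out of the scaling and 9.23 with at least 10 reads in every library. With RLE factors, another edgeR scaling, it was 10.1, and with library totals alone it was infinite. A gene that passed is thus a ranking aid more than evidence on its own spread.

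**Figure D1:**
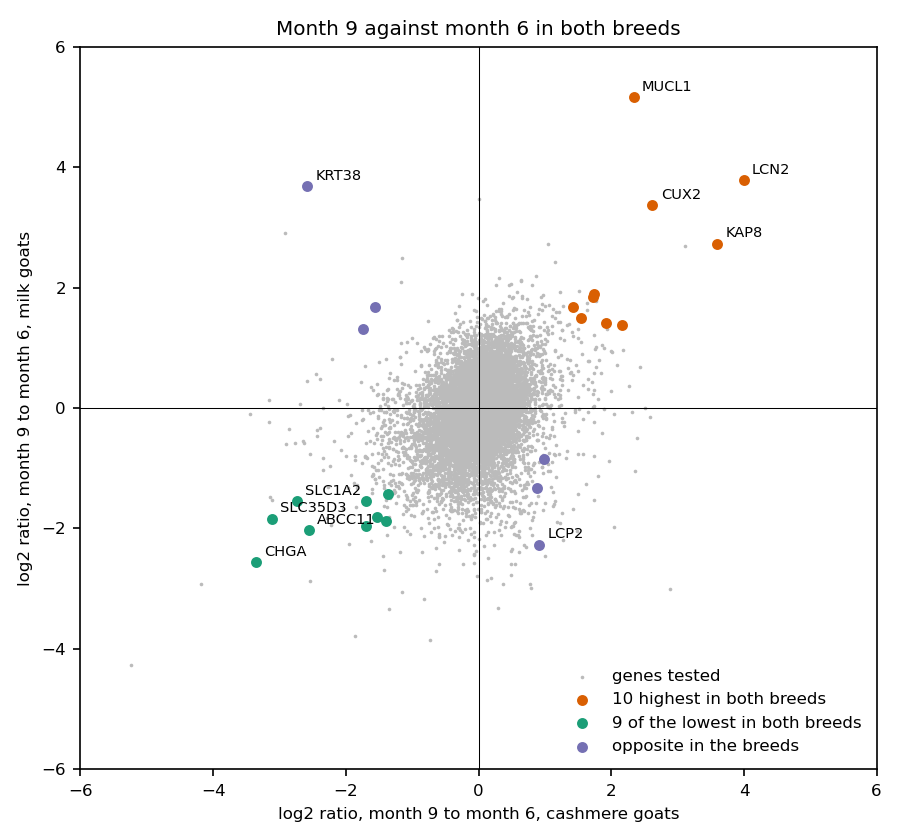
Log2 ratio of month 9 to month 6 in cashmere goats (x axis) and milk goats (y axis), each point a gene tested and each ratio 1 library against 1. LCN2, KAP8, CUX2 and MUCL1 lie far up in both breeds, CHGA, SLC35D3 and ABCC11 far down in both, and KRT38 lies on opposite sides.

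Of the hair gene groups in the first gene table, the keratin-associated proteins had the highest median ratio. KAP8 (gene37), a high-glycine-tyrosine KAP of the shaft, had 6906 reads in cashmere goats and 1403 in milk goats at month 9, against 540 and 250 at month 6. Both month 9 libraries lay above both month 6 libraries, a separation whose share over all genes was not counted. The ratio was 12.1-fold for the cashmere pair and 6.64-fold for the milk pair (log2 fold change 3.10 ± 0.69 SE in the fit of 8 libraries, n = 2 libraries a month), and KAP8 was one of the 13 genes that passed in all 6 analyses. Without each of the 4 libraries in turn, its log2 fold change lay between 2.48 and 3.91. KRTAP15-1 (gene43), another shaft KAP and also among the 13, had 1513 and 641 reads in cashmere and milk goats at month 9, against 493 and 269 at month 6. Its ratios were 2.91 and 2.83, while its level in milk goats at month 9, 58.9 CPM (TMM-scaled counts per 1000000 reads), was just under that in cashmere goats at month 6, 59.3 CPM. KRTAP11-1 had 14426 and 6328 reads at month 9, against 5597 and 3444 at month 6, with log2 ratios of 1.29 and 1.13. KRTAP3-1 had 10024 and 7976 reads at month 9, against 4971 and 2641 at month 6, with log2 ratios of 0.94 and 1.85. All 4 KAPs tested in the first gene table were higher in both breeds and passed, and 3 were past 2-fold in both. Their fitted median of 1.57 lay between 0.37 without milk goats at month 9 and 2.56 without milk goats at month 6. LOC100861181 (gene36), which lies next to KAP8 in RefSeq's gene table of the goat assembly ARS1.2 and has no gene name there, had 20521 and 8910 reads at month 9, against 2250 and 1637 at month 6. It also passed in all 6 analyses.

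The second gene table names more of this family, with 26 KAP genes listed and 24 tested. Of these, 19 were higher at month 9 in both breeds and 1 was lower in both, 5 were past 2-fold in both (0.487% of all genes in that table), and 4 passed (0.551%). Their median log2 fold change was 0.96, against 0.01 over all genes of the table, and was 0.40 in cashmere goats and 1.01 in milk goats. In that table, too, no gene passed in the fit of all 8 libraries, and 829 had an unadjusted p under 0.05. KAPs are grouped by composition, and the groups lay at different levels; this grouping was made after their values were seen. Both high-glycine-tyrosine KAPs were past 2-fold in both breeds and passed. KAP 7-1-like had 5991 and 1248 reads in cashmere and milk goats at month 9, against 667 and 276 at month 6, with log2 ratios of 3.17 and 2.40. KAP 6-1 had 13860 and 6430 reads at month 9, against 2755 and 2603 at month 6, with log2 ratios of 2.34 and 1.53. Reads of near-identical KAP copies may be divided among them by the counting, so values of single members are uncertain.

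The 6 ultra-high-sulfur KAPs, of the 4-7-like and 9-7-like kinds, were all higher in both breeds but unequally so. Their median log2 ratio was 0.40 in cashmere goats and 1.27 in milk goats, and none passed. The 16 high-sulfur KAPs ranged from -0.15 to 2.17 in log2 fold change, with a median of 0.25. Among these, the 9 of families 10, 12, 16, 24 and 26 had a median of 0.06 and values between -0.15 and 0.26. This subset is not a class by composition and was picked for its low values, so its low place was fixed by the choice. Their summed reads were 16448 in cashmere goats and 11159 in milk goats at month 9, against 14844 and 12194 at month 6. The high-glycine-tyrosine pair summed to 19851 and 7678 reads at month 9, against 3422 and 2879 at month 6. Counted apart from the KAPs by their product names, 3 high-sulfur matrix proteins of that table were all higher in both breeds. Their median log2 ratio was 0.66 in cashmere goats and 1.39 in milk goats, none was past 2-fold in both and none passed. They took 1.21% and 0.542% of the reads in cashmere and milk goats at month 9, against 0.687% and 0.271% at month 6. No test of the difference between these groups was made.

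**Figure D2:**
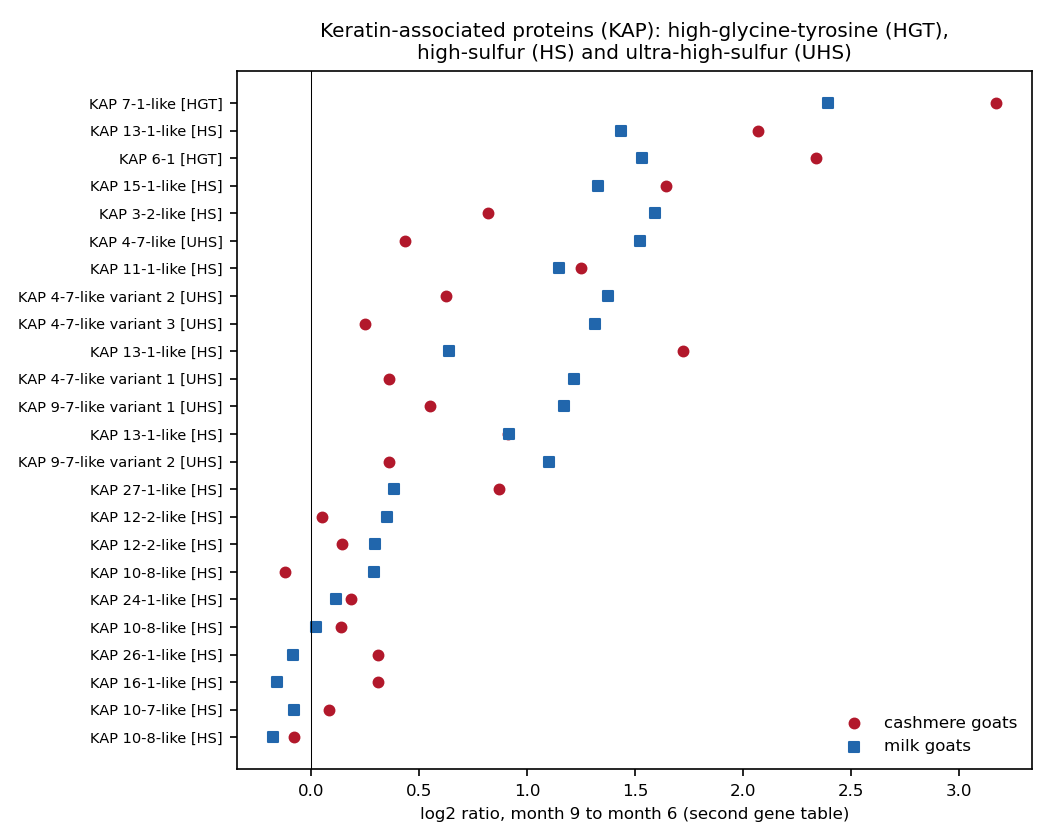
Log2 ratio of month 9 to month 6 (x axis) for the 24 keratin-associated proteins (KAPs) tested in the second gene table, cashmere goats as red circles and milk goats as blue squares, each 1 library against 1. KAP 7-1-like and KAP 6-1 reach log2 ratios of 3.17 and 2.34 in cashmere goats, and the families 10, 12, 16, 24 and 26 lie near 0.

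The keratins of the shaft had a lower median ratio than its KAPs in both breeds, a difference that was not tested. This did not hold for every KAP group of the second table. The 16 high-sulfur KAPs had a median log2 ratio of 0.31 in cashmere goats and 0.32 in milk goats, below the shaft keratins in milk goats. The 9 of families 10, 12, 16, 24 and 26, picked for their low values, had 0.14 and 0.02, below the shaft keratins in both breeds. The high-glycine-tyrosine and ultra-high-sulfur groups lay above the shaft keratins in both breeds. Of 17 shaft keratins in the second table, 11 were higher in both breeds and none was lower in both, none was past 2-fold in both and none passed. Their median log2 ratio was 0.19 in cashmere goats and 0.75 in milk goats. Keratin 85, an early keratin of matrix and cortex, had 53460 and 86281 reads in cashmere and milk goats at month 9, against 43640 and 47015 at month 6. Keratin 40 had 1142 and 1314 reads at month 9, against 1218 and 1411 at month 6. Shaft keratins took 3.40% and 2.27% of the reads in that table at month 9, against 2.82% and 1.62% at month 6, while KAPs took 0.904% (interval 0.899% to 0.908%) and 0.330% at month 9, against 0.523% and 0.207% at month 6. In the first table, where 8 shaft keratins were tested, 2 were higher in both breeds and the median of 0.42 turned to -0.04 when month 6 of cashmere goats was left out and to -1.18 when month 9 of milk goats was, and was highest, at 1.29, without cashmere goats at month 9. KRT35 had 7706 and 7719 reads at month 9, against 5638 and 4714 at month 6, with log2 ratios of 0.38 and 0.97, and KRT39 had 1834 and 1946 reads at month 9, against 1289 and 1324 at month 6.

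KRT38, a type I hair keratin, went opposite ways. It had 229 reads in cashmere goats and 1980 in milk goats at month 9, against 1317 and 181 at month 6. It was thus 6.01-fold lower in cashmere goats and 12.9-fold higher in milk goats. In an edgeR test of the breed difference of this step, which rests on 1 residual degree of freedom from months 3 and 12, KRT38 was the 1 gene that passed (adjusted p = 0.0281). In a model with a 12-month cycle 0 genes passed in edgeR (818 at an unadjusted p under 0.05). In the second table keratin 38 had 2222 and 17484 reads at month 9, against 10582 and 2717 at month 6. At months 3 and 12 it had 14 and 33 reads in cashmere goats and 2 and 3 in milk goats in the first table.

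All 9 inner root sheath genes tested were higher at month 9 in both breeds, and 2 of them passed, KRT26 and PADI1. KRT26, an inner root sheath keratin, had 3640 and 7670 reads in cashmere and milk goats at month 9, against 2079 and 2610 at month 6, with log2 ratios of 0.74 and 1.81. PADI1, an enzyme that converts arginine of structural proteins to citrulline, had 674 and 878 reads at month 9, against 425 and 486 at month 6. TCHHL1, a relative of trichohyalin, had 10383 and 43411 reads at month 9, against 6963 and 14544 at month 6. The group's median log2 ratio was 0.24 in cashmere goats and 0.76 in milk goats, and the fitted median of 0.62 turned to -0.72 without milk goats at month 9, stood at 0.17 without cashmere goats at month 6, and reached 1.70 without milk goats at month 6. KRT25 and KRT27, the other abundant sheath keratins, had log2 ratios of 0.24 and 0.22 in cashmere goats and 0.29 and 0.46 in milk goats.

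Regulators of the hair matrix were mostly higher at month 9. Of 31 tested, 19 were higher and 5 lower in both breeds, with 8 higher and 2 lower among those that passed, and the median of 0.31 turned to -0.15 without the milk goat library of month 9 and reached 0.68 without the cashmere goat library of month 9. FOXE1, a transcription factor downstream of hedgehog signals in mouse follicles, had 526 and 566 reads in cashmere and milk goats at month 9, against 329 and 252 at month 6. FOXN1, needed for hair keratin expression and mutated in nude mice, had 3414 and 4311 reads at month 9, against 1941 and 2529 at month 6. VDR, the vitamin D receptor, which mice need to restart the hair cycle, had 3725 and 4263 reads at month 9, against 2019 and 2324 at month 6. DLX3, a homeobox factor of hair differentiation, had 2707 and 2932 reads at month 9, against 1668 and 1664 at month 6. All 4 of these passed, and in each of them both month 9 libraries lay above both month 6 libraries. They were picked for large ratios or after their values were seen, so this separation is no further support. FOXI3, whose loss gives hairless dog breeds, was lower, with 29 and 53 reads at month 9, against 93 and 253 at month 6, and was 3.24-fold and 3.88-fold lower in cashmere and milk goats. FOXQ1, which sets the structure of the hair medulla in mice, had 240 and 770 reads at month 9, against 521 and 1257 at month 6. Both FOXI3 and FOXQ1 passed.

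Named hedgehog genes of the matrix were higher at month 9. SHH, the ligand, had 123 and 201 reads in cashmere and milk goats at month 9, against 76 and 97 at month 6. Its receptor and target PTCH1 had 1127 and 1254 reads at month 9, against 561 and 812 at month 6. GLI1, the transcription factor that reports pathway activity, had 98 and 184 reads at month 9, against 54 and 84 at month 6. All of these passed, and none of them was past 2-fold in both breeds. They were picked out of longer lists after their values were seen.

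Of 38 cell division genes tested, 34 were higher in both breeds and none was lower in both, and 7 passed. The median log2 ratio was 0.27 in cashmere goats and 0.65 in milk goats. The fitted median of 0.50 was 0.081 without milk goats at month 9 and was 0.76 without cashmere goats at month 9. CENPE, a kinesin of the kinetochore and one of the 13 genes that passed in all 6 analyses, had 344 and 963 reads in cashmere and milk goats at month 9, against 139 and 423 at month 6. TOP2A, the topoisomerase of dividing cells, had 1993 and 4437 reads at month 9, against 1325 and 1988 at month 6. MKI67 did not separate the months, with 222 and 346 CPM at month 9, against 229 and 154 CPM at month 6. IGF2BP2, an RNA-binding protein of growing tissues, is also among the 13, with 347 and 448 reads at month 9, against 122 and 165 at month 6.

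Genes of the dermal papilla had a median below 0. Of 25 dermal papilla genes tested, 4 were higher and 13 lower in both breeds, the median was -0.28 (-0.44 without cashmere goats at month 9), and 2 passed, both lower: SPON1 and IGFBP3. IGFBP3, which binds insulin-like growth factors, had 401 and 333 reads in cashmere and milk goats at month 9, against 515 and 769 at month 6. CORIN, a protease that marks the papilla, had 26 and 57 reads at month 9, against 48 and 153 at month 6, and did not pass. Of 27 genes for growth-phase signals, 5 were higher and 14 lower in both breeds (median -0.24, and -0.14 without cashmere goats at month 6), and 4 passed as higher, the hedgehog genes above among them. In this list 1 gene, not one of those hedgehog genes, was past 2-fold higher in both breeds, and 0 were past 2-fold lower. Over all genes tested these shares were 0.369% and 0.753%. KITLG, the ligand that feeds melanocytes, had 392 and 718 reads at month 9, against 808 and 1205 at month 6. GREM1, an inhibitor of bone morphogenetic proteins, had 739 and 861 reads at month 9, against 963 and 2254 at month 6. KITLG and GREM1 were the 2 that passed as lower.

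Of 24 genes for regression and rest signals, 5 were higher and 11 lower in both breeds, with a median of -0.11. Without single libraries it lay between -0.23 (without either milk goat library) and -0.065 (without cashmere goats at month 6). FGF22, a growth factor of the inner root sheath in mice, was the 1 that passed as higher, with 212 and 637 reads in cashmere and milk goats at month 9, against 136 and 242 at month 6. SFRP4, an inhibitor of Wnt signals, had 8 and 7 reads at month 9, against 19 and 88 at month 6. NGFR, the low-affinity neurotrophin receptor, had 71 and 80 reads at month 9, against 173 and 206 at month 6. SFRP4 and NGFR were past 2-fold in both breeds, and they and IGFBP3 passed as lower. Of 19 genes of follicle stem cells and outer root sheath, 11 were higher and 3 lower in both breeds, with a median of 0.25, and GLI1 was the 1 that passed. That median was 0.041 without milk goats at month 9 and 0.14 without milk goats at month 6.

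**Figure D3:**
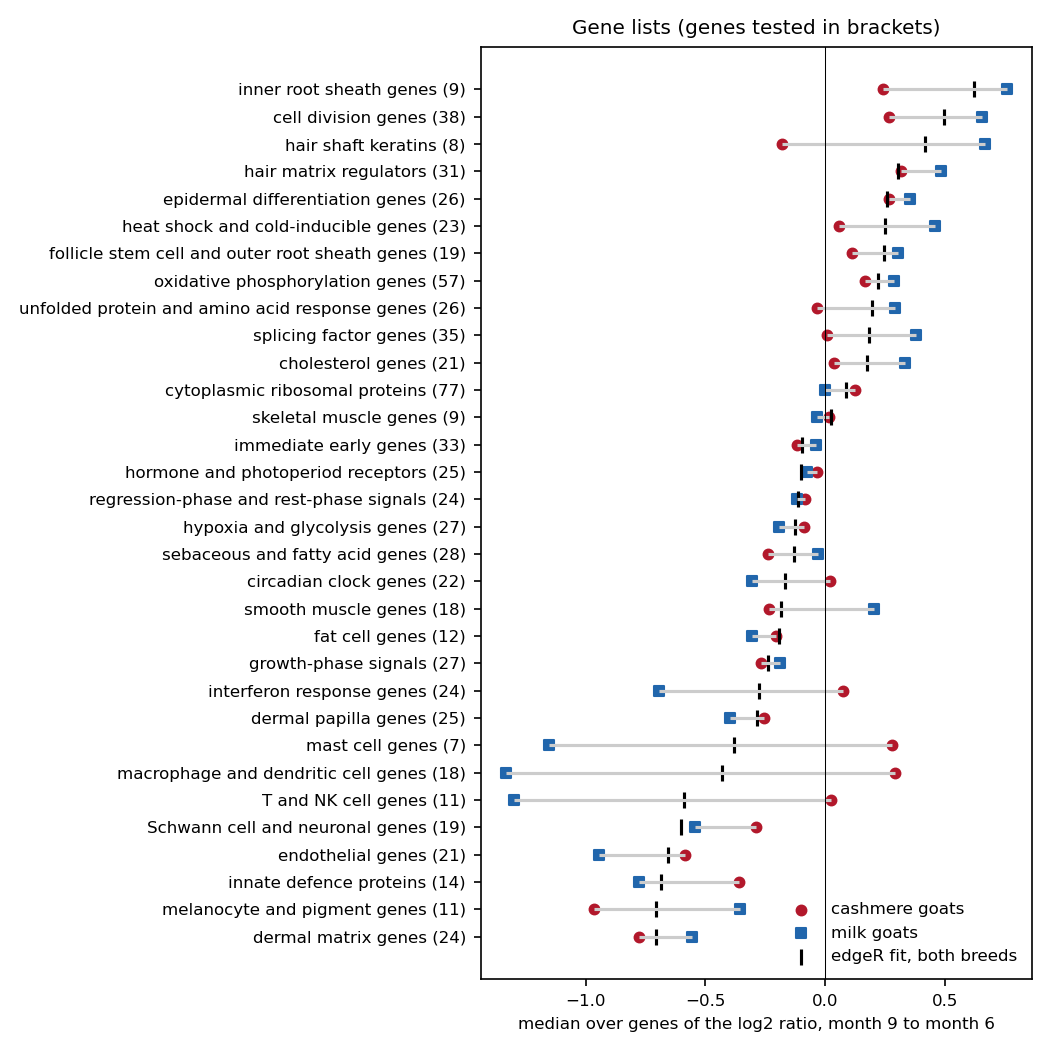
Median log2 ratio of month 9 to month 6 (x axis) over the genes of each list with at least 5 tested members, in cashmere goats (red circles), milk goats (blue squares) and the fit of both breeds (black ticks). Inner root sheath and cell division lists lie to the right in both breeds, and dermal matrix and endothelial lists to the left in both. The macrophage, T cell and mast cell lists lie to the left in milk goats. In cashmere goats the macrophage and mast cell lists lie right of 0 and the T cell list lies near 0.

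Genes of the dermis and its vessels were lower at month 9. Of 24 dermal matrix genes, none was higher and 21 were lower in both breeds, 6 passed, and the median log2 ratio was -0.78 in cashmere goats and -0.56 in milk goats. COL1A1, the main fibrillar collagen, had 1992 and 5141 CPM in cashmere and milk goats at month 9, against 17730 and 6069 CPM at month 6. It was 8.90-fold lower in cashmere goats and 1.18-fold lower in milk goats, so the difference is mostly that of cashmere goats at month 6, and it did not pass. COL1A2 and COL3A1 had the same pattern, with log2 ratios of -2.86 and -2.65 in cashmere goats and -0.35 and -0.54 in milk goats. THBS2, a matricellular glycoprotein of fibroblasts, was lower by like amounts in both breeds, with 56.4 and 77.4 CPM at month 9, against 117 and 169 CPM at month 6 (log2 ratios -1.05 and -1.13). LOX, which crosslinks collagen, had 65.6 and 59.8 CPM at month 9, against 151 and 115 CPM at month 6. COL6A3 had 234 and 274 CPM at month 9, against 455 and 522 CPM at month 6. THBS2, LOX and COL6A3 passed, and over the single-library omissions and other settings the median of the list stayed between -0.90 and -0.49.

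Of 21 endothelial genes, none was higher and 19 were lower in both breeds, and 7 passed. TIE1, a receptor of vessel endothelium, had 53 and 76 reads in cashmere and milk goats at month 9, against 109 and 197 at month 6. LYVE1, a marker of lymph vessels, had 61 and 65 reads at month 9, against 95 and 262 at month 6. PECAM1, a junction protein of endothelium, had 776 and 816 reads at month 9, against 1117 and 2059 at month 6. The median was -0.58 in cashmere goats and -0.95 in milk goats, and the fitted median of -0.66 was -0.40 without milk goats at month 9 and -1.06 without cashmere goats at month 9. The 11 genes that DESeq2 called with all 8 libraries were THBS2, COL6A3, MMP2, TWIST1, ITGA5, IGFBP6, CPZ and LOC102184389, lower at month 9, and CST6, PPIG and LOC102188015, higher. TWIST1, a mesenchymal transcription factor, had 201 and 235 reads at month 9, against 369 and 830 at month 6 (DESeq2 adjusted p = 0.0129). ITGA5, the fibronectin receptor subunit, had 195 and 210 reads at month 9, against 374 and 688 at month 6 (DESeq2 adjusted p = 0.0287). CST6, a cysteine protease inhibitor of the epidermis and follicle, had 36401 and 33299 reads at month 9, against 16842 and 24543 at month 6 (DESeq2 adjusted p = 0.0272). The part of tissue makeup in these differences was not tested. The median log2 fold change of all genes was 0.01, and 0.02 when hair genes were left out of the scaling; with library totals alone it was -0.18.

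Genes of secretion and transport were among those with the lowest ratios. ABCC11, a transporter of apocrine secretion, had 165 and 110 reads in cashmere and milk goats at month 9, against 935 and 542 at month 6, and was 5.90-fold and 4.07-fold lower. CHGA, chromogranin A of secretory granules, had 9 and 36 reads at month 9, against 103 and 265 at month 6. SLC35D3, an orphan member of the nucleotide sugar transporters, had 38 and 46 reads at month 9, against 325 and 203 at month 6. SLC1A2, a glutamate transporter, had 13 and 16 reads at month 9, against 92 and 61 at month 6. In these 4 genes, picked for low ratios in both breeds, both month 9 libraries lay below both month 6 libraries. All 4 passed, and ABCC11 and SLC35D3 did so in all 6 analyses. MUCL1, a small mucin of glands, went the other way, with 76 and 165 reads at month 9, against 13 and 3 at month 6. Its log2 ratio in milk goats was 5.16 (95% counting interval 4.46 to 8.33), from 3 reads at month 6, and at months 3 and 12 it had 193 and 175 reads in cashmere goats and 150 and 543 in milk goats.

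LCN2, lipocalin 2, a secreted protein that withholds iron from bacteria, had 277 and 247 reads in cashmere and milk goats at month 9, against 15 and 19 at month 6. It was 15.9-fold and 13.8-fold higher (log2 fold change 4.13 ± 1.11 SE in the fit of 8 libraries) and passed in all 6 analyses. Of 14 innate defence proteins tested, 3 were higher in both breeds, LCN2, PGLYRP3 and LYG2, and 7 were lower in both, and LCN2 passed as higher and 5 as lower. The median was -0.68, between -0.36 without milk goats at month 9 and -1.46 without cashmere goats at month 9. LTF, lactoferrin, had 6 and 10 reads at month 9, against 63 and 38 at month 6. PGLYRP1, which binds bacterial peptidoglycan, had 182 and 131 reads at month 9, against 734 and 254 at month 6. S100A8, a calprotectin subunit, had 26 and 37 reads at month 9, against 141 and 62 at month 6. S100A7A, a psoriasin-like protein, had 184 and 0 reads at month 9, against 640 and 33 at month 6, where 0 reads allow a level of up to 0.276 CPM in that library.

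**Figure D4:**
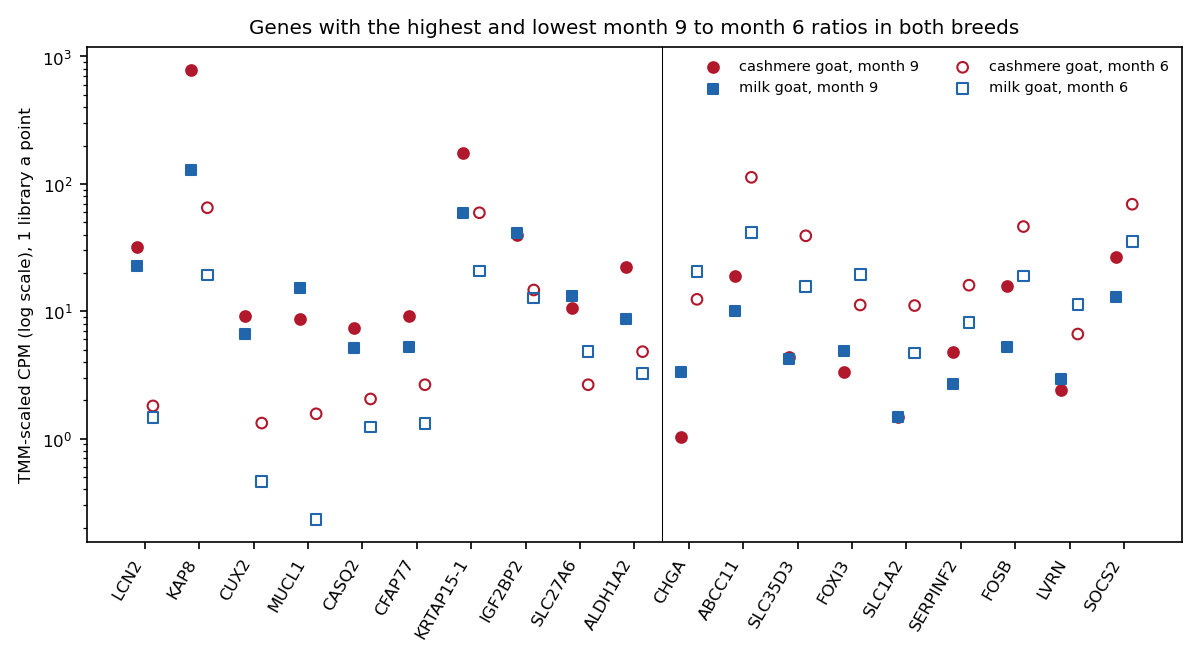
TMM-scaled counts per 1000000 reads (CPM, log scale) of the 10 genes with the highest and 9 of those with the lowest ratios in both breeds, each point 1 library, month 9 filled and left of month 6, open. In each gene plotted but KRTAP15-1 both month 9 libraries lie on the same side of both month 6 libraries. The choice of genes by their ratios in both breeds largely fixes this.

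The remaining genes with the highest ratios in both breeds have varied roles. CUX2, a homeobox factor, had 80 and 72 reads in cashmere and milk goats at month 9, against 11 and 6 at month 6. ALDH1A2, an enzyme that makes retinoic acid, had 194 and 95 reads at month 9, against 40 and 42 at month 6. SLC27A6, a fatty acid transport protein, had 92 and 144 reads at month 9, against 22 and 63 at month 6. CASQ2, a calcium store protein of heart muscle, had 64 and 56 reads at month 9, against 17 and 16 at month 6. CFAP77, a cilia-associated protein, had 80 and 57 reads at month 9, against 22 and 17 at month 6. All 5 passed. Among the lowest, SOCS2, a suppressor of growth hormone and cytokine signals, had 234 and 142 reads at month 9, against 575 and 459 at month 6, and passed in all 6 analyses. SERPINF2, the inhibitor of plasmin, had 42 and 29 reads at month 9, against 133 and 106 at month 6, and LVRN, an aminopeptidase, had 21 and 32 reads at month 9, against 55 and 147 at month 6. IGSF10, an immunoglobulin superfamily member named here after its values were seen because it is among the 13, had 163 and 214 reads at month 9, against 558 and 646 at month 6. The 2 others of the 13 without a name here were LOC102188015, higher with 941 and 1229 reads at month 9, against 348 and 555 at month 6, and LOC102189201, lower with 413 and 164 at month 9, against 2290 and 1448 at month 6.

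Immediate early genes, which respond to stimuli and to handling of tissue within minutes, were lower where they passed. Of 33 tested, 10 were higher and 16 lower in both breeds, and 5 passed, all lower. FOSB, a subunit of the AP-1 transcription factor and one of the 13, had 138 and 57 reads in cashmere and milk goats at month 9, against 384 and 246 at month 6. PTGS2, the inducible enzyme of prostaglandin synthesis, had 152 and 89 reads at month 9, against 303 and 344 at month 6. NR4A1 had 36 and 47 reads at month 9, against 193 and 73 at month 6, a difference mostly of cashmere goats.

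Pigment and nerve genes that passed were lower at month 9. Of 11 melanocyte genes tested, 3 were higher and 6 lower in both breeds, and 4 passed, all lower. The fitted median of -0.71 was -0.10 without cashmere goats at month 6 and -0.31 without cashmere goats at month 9. TRPM1, a melanocyte ion channel, had 48 and 6 reads in cashmere and milk goats at month 9, against 183 and 22 at month 6. MLPH, which links melanosomes to their motor, had 99 and 100 reads at month 9, against 221 and 220 at month 6. PMEL, a structural protein of melanosomes, was low throughout, with 11 and 3 reads at month 9, against 22 and 11 at month 6. Of 19 Schwann cell and neuronal genes, 4 were higher and 11 lower in both breeds, and 5 passed, all lower, CHGA among them. SOX10, a factor of both Schwann cells and melanocytes and on both lists, had 52 and 90 reads at month 9, against 122 and 195 at month 6.

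Medians of immune cell genes were below 0 in milk goats and near or above 0 in cashmere goats. Over all genes tested the median was 0.03 in cashmere goats and -0.01 in milk goats. In both breeds, 0 macrophage and dendritic cell genes were higher and 7 lower, against 0 and 5 T and NK cell genes and 3 and 10 interferon response genes. The median log2 ratio of 18 macrophage and dendritic cell genes was 0.29 in cashmere goats and -1.33 in milk goats, that of 11 T and NK cell genes 0.03 and -1.30, and that of 24 interferon response genes 0.07 and -0.70. C1QB, a complement subunit made by macrophages, had 96 and 81 reads in cashmere and milk goats at month 9, against 99 and 420 at month 6. CD14, a monocyte receptor, was lower in both breeds, with 147 and 153 reads at month 9, against 229 and 464 at month 6. All 3 medians were lowest without cashmere goats at month 9, at -1.39, -1.53 and -0.85. Without the milk goat library of month 9 the fitted median turned from -0.43 to 0.15 for the macrophage list and from -0.28 to 0.14 for the interferon list. For the T and NK list it stayed below 0, at or under -0.17 in every setting tried. CXCL9, an interferon-induced chemokine, was past 2-fold lower in both breeds, with 19 and 40 reads at month 9, against 48 and 140 at month 6.

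In the epidermis, 17 of 26 differentiation genes were higher and 4 lower in both breeds, and 3 passed, all higher: CRNN, KRT78 and LIPK. The fitted median of 0.26 was 0.055 without milk goats at month 9 and 0.43 without milk goats at month 6. CRNN, cornulin of the cornified layer, had 2699 and 4391 reads in cashmere and milk goats at month 9, against 1498 and 1644 at month 6. KRT1, the main keratin of the upper epidermis, had 4652 and 7756 CPM at month 9, against 7407 and 8834 CPM at month 6. Among lipid genes, SOAT1, which esterifies cholesterol, had 1565 and 1795 reads at month 9, against 2883 and 4355 at month 6, and passed. Of 28 sebaceous and fatty acid genes, 7 were higher and 11 lower in both breeds, and of 25 hormone and photoperiod receptors, 6 and 9. Over all genes tested, 31% were higher and 28.6% lower in both. The fitted medians of both lists, -0.13 and -0.099, turned to 0.052 and 0.0087 without cashmere goats at month 6. Among the receptors, ESR1, the estrogen receptor, had 78 and 97 reads at month 9, against 161 and 250 at month 6, 2.14-fold and 2.13-fold lower. None of 22 clock genes passed or was past 2-fold in both breeds, and their median was -0.17 (-0.45 without cashmere goats and -0.065 without milk goats at month 9). Of 57 oxidative phosphorylation genes, 34 were higher and 4 lower in both breeds and none passed, with a median of 0.22 (0.13 without milk goats at month 6).

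Over the 4 months, the step stood in the following courses. KAP8 had 292, 540, 6906 and 3083 reads in cashmere goats at months 3, 6, 9 and 12, and 92, 250, 1403 and 153 in milk goats, so month 9 was the highest in both. LCN2 had 16, 15, 277 and 162 reads in cashmere goats and 4, 19, 247 and 3 in milk goats. ABCC11 had 519, 935, 165 and 103 reads in cashmere goats and 589, 542, 110 and 482 in milk goats, so the low level at month 9 lasted to month 12 in cashmere goats and not in milk goats. CHGA had 309, 103, 9 and 13 reads in cashmere goats and 373, 265, 36 and 261 in milk goats. No test of these courses was made, since each breed and month has 1 library.

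**Figure D5:**
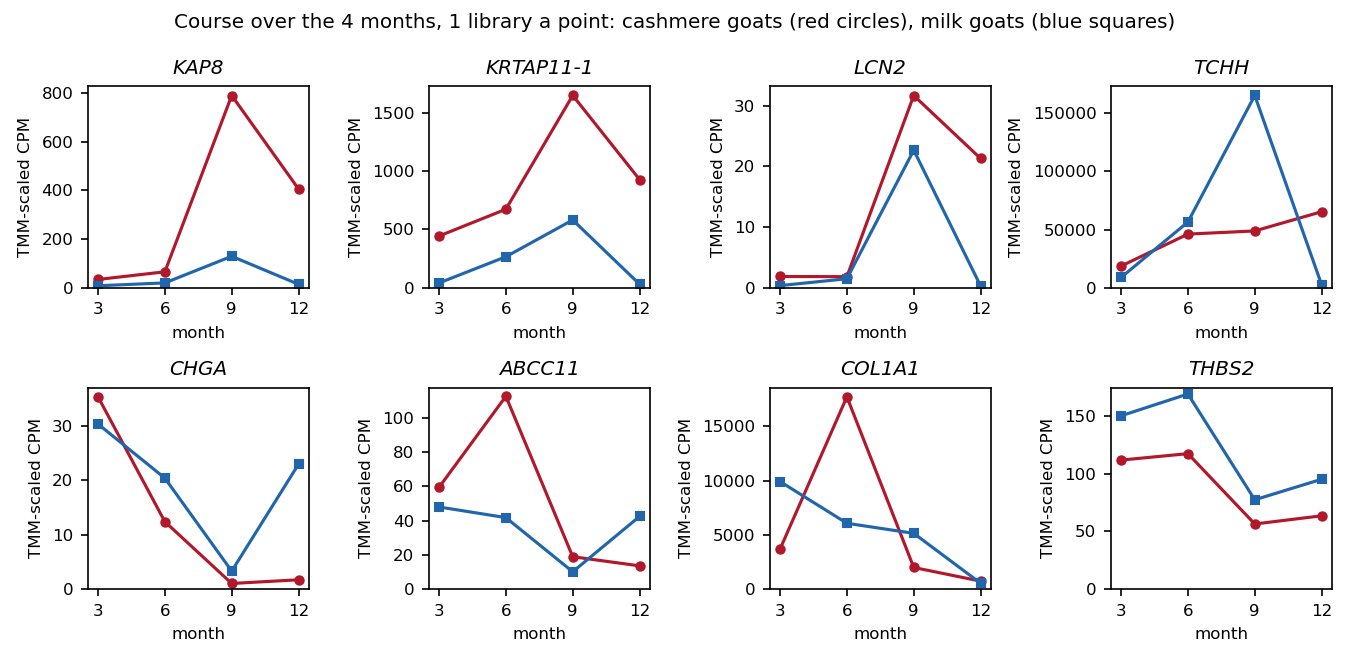
TMM-scaled counts per 1000000 reads (CPM, y axis, from 0) of 8 genes over months 3, 6, 9 and 12 (x axis), cashmere goats as red circles and milk goats as blue squares, each point 1 library. KAP8, KRTAP11-1 and LCN2 peak at month 9 in both breeds, CHGA and ABCC11 are low at month 9 in both, and COL1A1 stands out in cashmere goats at month 6.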

How the data were processed

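Skin RNA was sequenced as directional paired-end libraries of polyadenylated RNA, per the labels' protocols, and Bowtie2 is named in the submitters' processing notes with no version or role. The authors' genome build was not named, and positions were left out; RefSeq's gene table of assembly ARS1.2 served only to tell which gene neighbours KAP8. The authors deposited raw counts per gene in both count tables, without normalization, and FPKM computed by the authors for the genes of the first. Columns with a transliterated name for cashmere goats were assigned by the other words of their names, and all 8 columns of the 2 count tables matched best the same label over 12073 shared symbols.

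The first table lists 18815 genes, of which 14085 were kept by filterByExpr on breed, and 14994 of 20780 in the second. Counts were tested with edgeR 4.0.16 (R 4.3.3): TMM factors, quasi-likelihood F test, model of month (4 levels) and breed over all 8 libraries (3 residual degrees of freedom), Benjamini-Hochberg threshold 0.05. Breed ratios are log2 TMM CPM with a prior count of 2. Scripts were tested on simulated data. A count of 0 allows up to 3 reads, which is 0.231 to 0.395 CPM; intervals and floors cover counting error only, as reads carry no molecular identifiers. Alternatives were a fit of the 4 libraries, DESeq2 1.42.0, limma 3.58.1 on log2(FPKM + 1) or log2(FPKM + 0.1), other scalings and filters, and each of the 4 libraries of months 6 and 9 left out.

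Genes were named by a rule: symbols not starting with LOC; the 10 in each direction whose smaller breed ratio is largest, with at least 50 reads in each library of the higher month (none passed the test first); 3 in each direction with opposite ratios; up to 4 list members with the largest fold change; LCN2 and KAP8. Some genes this rule takes are left out. Other genes, among them abundant or well-known members of the lists, were chosen after their values were seen. Lists and comparison were chosen with earlier results of these data known. Sequences were not used here.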

Additional observations from a re-analysis of the deposited data

Results flagged for a closer look

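The results below are given here because their direction differed between the breeds, each breed 1 library against 1. KRT38 had a log2 ratio of month 9 to month 6 of -2.59 in cashmere goats and 3.69 in milk goats (edgeR interaction adjusted p = 0.0281 on 1 residual degree of freedom, 0 genes called in the 12-month cycle model). For the other 5 genes the interaction adjusted p was 1: LCP2, an adaptor of T cells, 0.92 and -2.27 in cashmere and milk goats; LAMP3, a dendritic cell protein, 0.88 and -1.33; VIT, a matrix protein, 0.99 and -0.85; AADACL3, a deacetylase-like protein, -1.56 and 1.68; CCDC80, a matrix protein of fibroblasts and fat, -1.74 and 1.31.

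Medians with opposite signs were, in cashmere and then milk goats, -0.18 and 0.67 for hair shaft keratins, 0.074 and -0.696 for interferon response genes, 0.026 and -1.30 for T and NK cell genes, 0.29 and -1.33 for macrophage and dendritic cell genes, and 0.28 and -1.16 for mast cell genes. They were -0.23 and 0.20 for smooth muscle genes, 0.017 and -0.035 for skeletal muscle genes, 0.022 and -0.305 for clock genes, 0.13 and -9.1e-05 for ribosomal proteins, and -0.033 and 0.294 for unfolded protein response genes. Over all genes tested the medians were 0.028 in cashmere goats and -0.012 in milk goats, so several of these lie near them. These differences between the breeds were not tested.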

How the results depend on the processing

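Fits of all 8 libraries with other scalings or filters, without the breed term, with limma, and without each of the 4 libraries of months 6 and 9 (range 0 to 0; 253 to 1936 genes at an unadjusted p under 0.05) called 0 genes in edgeR or limma, and DESeq2 called 11. The 4 libraries alone gave 494 calls, 264 with library totals, 68 with RLE factors, 34 with at least 10 reads in every library, 17 with scaling without hair genes and 95 with DESeq2; the last 5 were chosen after seeing the data. The second table gave 178. Genes past a ratio in both breeds numbered 261 higher and 464 lower at 1.5, 10 and 14 at 3, and 30 and 174 with library totals. The breed difference had 0 calls in the 12-month cycle model. Ratios of read shares, month 9 over month 6, moved for shaft keratins to 1.21 in cashmere goats by the second table, and in milk goats to 1.65 as TMM-scaled CPM and 1.41 by the second table. For KAPs they moved to 1.73 in cashmere goats by the second table, and in milk goats to 2.95 and 1.60 by the same changes. For inner root sheath genes they were 1.08 and 2.79 as TMM-scaled CPM. The causes were not tested. Library totals moved the median of all genes to -0.18 and FPKM to -0.12 or -0.17. Of 35 lists 18 kept the sign of their median under every alternative.

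Signs turned for the 6 genes with opposite breed ratios. Leaving out 1 library at a time gave ranges of -2.08 to 0.46 for LCP2, -1.18 to 0.58 for LAMP3, -0.71 to 0.76 for VIT, -2.66 to 3.73 for KRT38, -1.10 to 1.34 for AADACL3 and -1.33 to 0.91 for CCDC80. LAMP3 stood at 0.14 and CCDC80 at 0.0086 without the breed term. VIT stood at -0.024 with library totals and -0.053 by limma on log2(FPKM + 0.1). AADACL3 stood at -0.14 with library totals, -0.034 by limma on log2(FPKM + 1) and -0.12 on log2(FPKM + 0.1). No paired analysis was possible because no replicate numbers link libraries beyond breed, which is already in the model. With 1 library per breed and month, the spread between animals is unknown. Depth limits genes near 3 reads, and also genes with somewhat more reads than that. CUX2 had 11 and 6 reads in cashmere and milk goats at month 6. The counting intervals of its log2 ratios were 1.87 to 3.85 and 2.65 to 5.33. For LCN2, with 15 and 19 reads at month 6, they were 3.39 to 4.99 and 3.28 to 4.71.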
